A study of Homo sapiens with 6 samples.

Results

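The 39 human HOX genes of the HOXA, HOXB, HOXC and HOXD clusters were followed in prostate cancer cells with acquired resistance to the AKT inhibitor GDC-0068. They were taken as every gene row whose symbol is HOXA, HOXB, HOXC or HOXD followed by digits only, which gave 11 HOXA, 10 HOXB, 9 HOXC and 9 HOXD genes among 27734 gene rows. RNA of PC-3, an established human prostate cancer line derived from a bone metastasis, was sequenced in 6 libraries. The resistant group (PC-3-GDC-R, 3 libraries) was kept under continuous GDC-0068, a drug also named ipatasertib that blocks the ATP site of the AKT kinases. The control group (PC-3-control, 3 libraries) was cultured in parallel with the vehicle, DMSO. Both groups are the same line in the same serum-containing medium, and no engineered allele is named for either. The sources used here do not give the dose, the length of exposure or whether PC-3-GDC-R is a clone or a pool. Drug was present in the resistant cells, so the resistant state and ongoing exposure to GDC-0068 cannot be told apart. Nothing in the labels states that replicate libraries were grown as separate cultures, and the p-values therefore measure only the spread between these libraries, which may be technical.

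HOX genes encode homeodomain transcription factors that give cells a position along the body axis. Within each cluster the genes lie in the order of their paralogue group number, low numbers being used anteriorly and high numbers posteriorly, and the high-numbered genes descend from an Abdominal-B-like ancestor. Polycomb complexes keep the clusters silent, trithorax and COMPASS complexes keep them active, retinoic acid induces the low-numbered genes, and TALE homeodomain proteins bind DNA together with HOX proteins. The adult prostate is a posterior tissue that is known for HOXB13, a factor of the prostate epithelial lineage.

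Summed gene counts were 35562400 to 44279078 fragments per library. The biological coefficient of variation was 7.17%. Control replicate 1 stood apart from the other controls by GC content. The Spearman correlation across genes, of its deviation from the control mean with GC, was −0.761, against 0.603 and 0.646 for the other controls. Deviations within a group offset each other, so these values depend on one another. In the resistant libraries, taken from their own mean, the correlations were 0.004, 0.206 and −0.21. PC-3 identity was checked on 10 epithelial and prostate markers, of which 7 reached a mean of 1 FPKM, the fragment count divided by transcript length and library depth. The summed level of the 10 was 1395 to 1565 FPKM in the controls and 1297 to 1367 FPKM in the resistant libraries. The prostate secretory gene KLK3 had 0 fragments in all libraries. Without CD68, which tumour cells also express, the leukocyte markers summed to 0.122 to 0.135 FPKM in the controls and 0.176 to 0.319 FPKM in the resistant libraries; with CD68 the sums were 15.6 to 16.3 and 34.97 to 36.9 FPKM. The 8 fibroblast and endothelial markers summed to 3.44 to 4.50 FPKM in the controls and 2.20 to 2.44 FPKM in the resistant libraries. The part of these markers in the HOX results was not tested.

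Most HOX RNA in PC-3 cells came from HOXB13 and from the posterior HOXA genes, and their summed level was lower in the resistant libraries. Summed over the 39 genes, HOX expression was 180.7 ± 2.47 FPKM (SD, n = 3) in the controls and 146.1 ± 0.993 FPKM (SD, n = 3) in the resistant cells, and the groups did not overlap. HOXB13 alone made up 42.5% ± 2.93 (SD, n = 3) of that sum in the controls and 27.6% ± 0.903 (SD, n = 3) in the resistant cells. Without HOXB13 the sum was 103.8 ± 3.84 FPKM against 105.7 ± 2.04 FPKM (SD, n = 3 each), and the groups overlapped. In a bulk sample, fewer cells expressing a gene and less RNA per cell cannot be told apart.

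The cluster sums differed in direction. The HOXA sum was 76.7 ± 3.38 FPKM in the controls and 69.9 ± 2.54 FPKM in the resistant cells (SD, n = 3 each). The HOXB sum was 89.2 ± 6.15 FPKM against 57.1 ± 0.83 FPKM. With HOXB13 left out the HOXB sum ran the other way, at 12.2 ± 0.346 FPKM in the controls and 16.8 ± 0.335 FPKM in the resistant cells. HOXC, at 14.03 ± 0.269 FPKM, was 17.9 ± 0.88 FPKM in the resistant cells. The models of HOXC4, HOXC5 and HOXC6 share part of their exons. The HOXC sum, and the sum over all HOX genes, can therefore count a fragment more than once. HOXD was close to silent, at 0.782 ± 0.0866 FPKM and 1.16 ± 0.0798 FPKM summed over 9 genes. The HOXB and HOXC sums, the HOXB sum without HOXB13 and the HOXD sum each separated the groups without overlap, and so did the HOXA sum. No test was run on these sums.

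**Figure D1:**
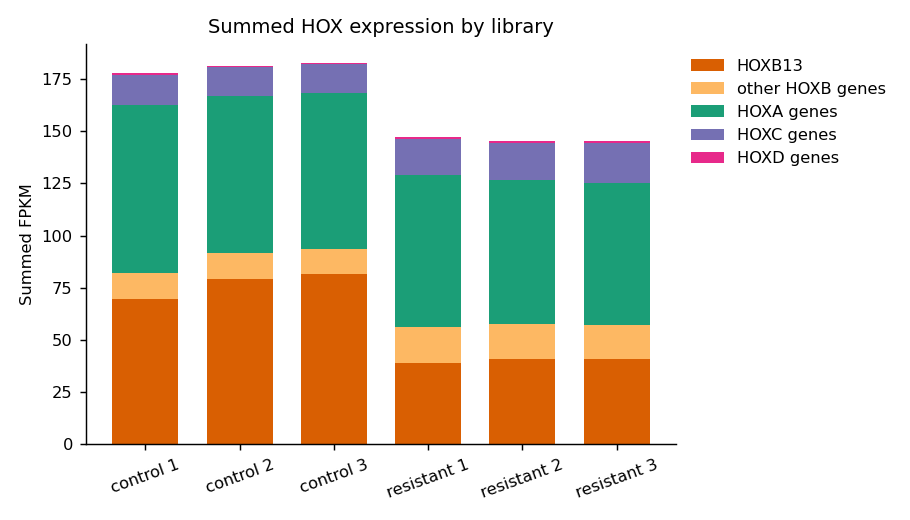
Summed FPKM of the HOX genes in each of the 6 libraries (y axis, linear from 0), stacked by cluster with HOXB13 drawn apart from the other HOXB genes. The HOXB13 block averages 76.9 FPKM in the controls and 40.3 FPKM in the resistant libraries, while the other blocks together average 103.8 and 105.7 FPKM.

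Of the 39 genes, 17 had a mean of at least 1 FPKM over the 6 libraries and were tested. By edgeR's quasi-likelihood test with Benjamini-Hochberg adjustment over all 13070 tested genes, at an adjusted p under 0.05, 7 HOX genes rose in the resistant cells, 4 fell and 6 did not pass. Over all tested genes 24.5% were called higher and 25.7% lower (50.2% in either direction), so calls as such were common in this comparison. The median log2 fold change of the 17 HOX genes was 0.39, against −0.01 over all tested genes. The groups did not overlap for 9 tested HOX genes that were higher and 4 that were lower in the resistant cells, where 31.9% and 28.5% of all tested genes (60.5% together) had such a separation. HOXA7, HOXB3, HOXC4 and HOXC5 had a control mean under 1 FPKM and entered the test through their level in the resistant cells, and no gene entered the other way. These counts and medians are descriptions of the members that passed the filter.

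**Figure D2:**
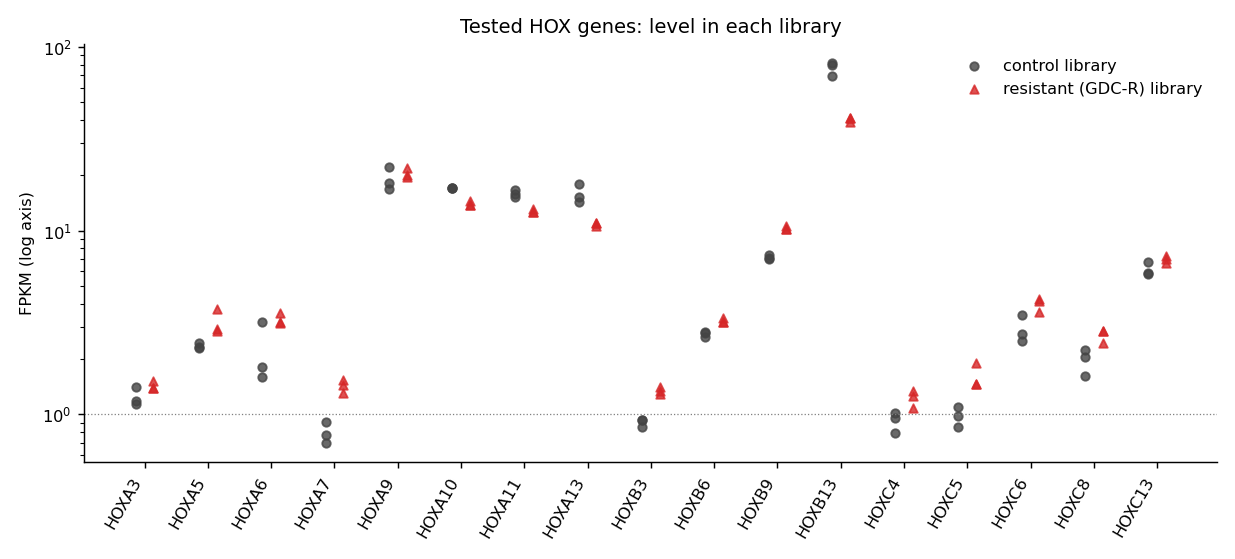
FPKM (log axis) of the 17 tested HOX genes in each library, control libraries as grey circles and resistant libraries as red triangles; the dotted line is at 1 FPKM. HOXB13 is the most abundant gene in both groups, and the resistant libraries lie below the controls for HOXA10, HOXA11, HOXA13 and HOXB13.

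The 4 genes that fell are all of paralogue groups 10 to 13. HOXB13, the prostate-lineage HOX factor and the most abundant HOX gene, measured 69.8, 79.4 and 81.6 FPKM in the controls and 39.1, 41.04 and 40.8 FPKM in the resistant libraries. Every resistant library was far below every control. The log2 fold change was −0.95 ± 0.06 (SE; edgeR quasi-likelihood, adjusted p = 6.65e-06), so the controls were 1.93-fold higher. HOXB13 lies on the minus strand of chromosome 17 (chr17:46802127-46806111, hg19), apart from the rest of its cluster, with 98.3 kb between it and HOXB9.

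HOXA13, the terminal gene of the HOXA cluster, with a known role in development of the urogenital tract and digits, measured 17.8, 15.2 and 14.2 FPKM in the controls and 10.6, 11.02 and 11.04 FPKM in the resistant libraries. Control replicate 1 was the highest, and the groups did not overlap. The log2 fold change was −0.55 ± 0.09 (SE; edgeR quasi-likelihood, adjusted p = 0.00111). HOXA11, known for limb and reproductive tract development, measured 15.2, 15.85 and 16.6 FPKM in the controls and 13.2, 12.6 and 12.7 FPKM in the resistant libraries, again without overlap. It fell by 0.33 ± 0.06 on the log2 scale (SE; edgeR quasi-likelihood, adjusted p = 0.00144). HOXA10, which acts in uterine and vertebral patterning, had nearly the same value in all controls, 17.1, 17.1 and 17.1 FPKM, and 14.4, 13.75 and 13.7 FPKM in the resistant libraries. All resistant values lay below the controls, and HOXA10 fell by 0.31 ± 0.05 on the log2 scale (SE; edgeR quasi-likelihood, adjusted p = 0.00102). The HOXA10 model overlaps the readthrough transcript HOXA10-HOXA9 on the same strand and the antisense RNA HOXA10-AS, so its value cannot be fully told apart from theirs. The fall of HOXA10 and HOXA11 was thus smaller than that of HOXB13, and all 4 genes kept their call with each library left out in turn.

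The starts of 4 HOXA genes that passed are shown because these genes lie on the same strand of chromosome 7 and changed in opposite directions, together with that of HOXC5. RefSeq promoters (GRCh38.p14, 250 bases before to 50 bases after the start) were found for 20 of the 39 HOX genes, and for 5 of the 11 that passed. Capitals mark matches, on either strand, to TATAAA (the core promoter box of that name), CCAAT (which nuclear factor Y binds), CACGTG (known as the E-box) or CAATAAA (which posterior HOX proteins such as HOXB13 bind); CCAAT and CAATAAA can share letters. Of 35116 RefSeq promoters, 11.5% held TATAAA, 34.6% CCAAT, 7.26% CACGTG and 4.0% CAATAAA. HOXA13 starts in chr7:27200042-27200341, HOXA11 in chr7:27185183-27185482, HOXA10 in chr7:27179812-27180111 (start a) and chr7:27174271-27174570 (start b), and HOXA7, which rose, in chr7:27156626-27156925, all on the minus strand. HOXC5, which also rose, starts in chr12:54016638-54016937 on the plus strand, the same window as HOXC4.
HOXA13: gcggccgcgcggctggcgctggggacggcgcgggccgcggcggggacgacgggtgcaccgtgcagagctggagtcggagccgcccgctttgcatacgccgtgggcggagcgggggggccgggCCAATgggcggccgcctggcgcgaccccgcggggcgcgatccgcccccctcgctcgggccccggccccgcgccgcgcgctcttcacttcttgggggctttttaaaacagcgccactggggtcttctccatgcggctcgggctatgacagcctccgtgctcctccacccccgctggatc
HOXA11: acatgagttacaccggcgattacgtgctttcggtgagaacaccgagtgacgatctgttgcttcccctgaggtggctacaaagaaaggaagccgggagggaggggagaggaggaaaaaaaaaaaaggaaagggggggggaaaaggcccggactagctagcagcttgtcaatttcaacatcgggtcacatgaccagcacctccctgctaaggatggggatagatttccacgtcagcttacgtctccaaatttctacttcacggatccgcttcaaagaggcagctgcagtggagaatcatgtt
HOXA10 start a: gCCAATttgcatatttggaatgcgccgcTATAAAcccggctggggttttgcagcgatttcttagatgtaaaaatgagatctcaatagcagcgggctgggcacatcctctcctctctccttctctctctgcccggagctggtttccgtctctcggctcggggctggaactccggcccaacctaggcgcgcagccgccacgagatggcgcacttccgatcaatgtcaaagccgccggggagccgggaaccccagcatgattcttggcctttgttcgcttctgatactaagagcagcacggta
HOXA10 start b: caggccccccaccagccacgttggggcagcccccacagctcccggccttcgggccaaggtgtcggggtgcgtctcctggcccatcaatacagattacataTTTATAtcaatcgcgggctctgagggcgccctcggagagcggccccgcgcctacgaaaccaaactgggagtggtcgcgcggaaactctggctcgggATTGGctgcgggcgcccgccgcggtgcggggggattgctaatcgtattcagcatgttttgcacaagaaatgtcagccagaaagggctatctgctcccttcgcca
HOXA7: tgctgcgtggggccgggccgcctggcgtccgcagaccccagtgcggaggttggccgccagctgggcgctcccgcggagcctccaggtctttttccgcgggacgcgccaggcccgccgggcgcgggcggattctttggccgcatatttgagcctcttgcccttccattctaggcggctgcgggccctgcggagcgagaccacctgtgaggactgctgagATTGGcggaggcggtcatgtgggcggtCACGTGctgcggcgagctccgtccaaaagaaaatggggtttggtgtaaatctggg
HOXC5: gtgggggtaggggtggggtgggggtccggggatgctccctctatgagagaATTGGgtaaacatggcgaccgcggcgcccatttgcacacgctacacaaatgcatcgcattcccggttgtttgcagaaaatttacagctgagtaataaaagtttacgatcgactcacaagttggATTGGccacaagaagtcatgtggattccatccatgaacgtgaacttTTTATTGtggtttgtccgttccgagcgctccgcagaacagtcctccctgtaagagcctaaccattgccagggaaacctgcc
Among the genes that fell, HOXA13 held a CCAAT match, both HOXA10 starts held a TATAAA and a CCAAT match, and HOXA11 held none of the 4 motifs. Among those that rose, HOXA7 held a CCAAT and a CACGTG match, and HOXC5 held CCAAT at 2 places and a CAATAAA match. These promoters carried 13 to 44 CpG dinucleotides, against a median of 14 over all promoters, HOXA11 having the fewest and HOXA13 the most. A match describes the letters of the window and does not show a site in use.

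The 7 genes that rose are all of paralogue groups 3 to 9 and were low to moderate in level. HOXB9, the most abundant of them, measured 7.12, 7.32 and 7.03 FPKM in the controls and 10.55, 10.2 and 10.2 FPKM in the resistant libraries. The groups were far apart relative to their spread, with a log2 fold change of 0.51 ± 0.06 (SE; edgeR quasi-likelihood, adjusted p = 0.000178). HOXB9 is the nearest HOX neighbour of HOXB13, and the pair moved in opposite directions. The ratio of HOXB13 to HOXB9 FPKM was 10.8 ± 0.906 in the controls and 3.92 ± 0.18 in the resistant cells (SD, n = 3 each).

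HOXA7, a central HOX factor, measured 0.698, 0.909 and 0.776 FPKM in the controls and 1.53, 1.44 and 1.30 FPKM in the resistant libraries. It had the largest rise among the tested HOX genes, 0.82 ± 0.14 on the log2 scale (SE; edgeR quasi-likelihood, adjusted p = 0.00173), on 54 to 122 fragments per library. The models of HOXA5, HOXA6 and HOXA7 overlap the antisense RNA HOXA-AS3, which had 90 to 175 fragments per library, and as the counting strand is not known, their values and that of HOXA-AS3 cannot be told apart. HOXA5, known for lung patterning, measured 2.33, 2.30 and 2.45 FPKM in the controls and 3.73, 2.91 and 2.83 FPKM in the resistant libraries. Resistant replicate 1 was the highest and the groups did not overlap. The log2 fold change of HOXA5 was 0.39 ± 0.13 (SE; edgeR quasi-likelihood, adjusted p = 0.0307), and the call was lost without control replicate 2 (log2 fold change 0.37) or resistant replicate 1 (0.27).

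HOXB3, an anterior gene with a role in hindbrain and thyroid development, measured 0.936, 0.934 and 0.859 FPKM in the controls and 1.40, 1.29 and 1.33 FPKM in the resistant libraries, without overlap. Its log2 fold change was 0.54 ± 0.10 (SE; edgeR quasi-likelihood, adjusted p = 0.00201). The HOXB3 gene model overlaps that of HOXB4 on the same strand, but HOXB4 had 2 to 20 fragments per library against 121 to 217 for HOXB3. HOXB3 and HOXB2 also overlap the antisense RNA HOXB-AS1, with the same limit on strand.

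Of the HOXC cluster, 3 genes rose and none fell. HOXC5 measured 0.85, 1.10 and 0.98 FPKM in the controls and 1.46, 1.47 and 1.90 FPKM in the resistant libraries. The groups did not overlap, and the log2 fold change was 0.70 ± 0.16 (SE; edgeR quasi-likelihood, adjusted p = 0.00578). HOXC6, reported in prostate tumours, measured 3.49, 2.49 and 2.75 FPKM in the controls and 3.60, 4.11 and 4.24 FPKM in the resistant libraries. Control replicate 1 came close to resistant replicate 1, without crossing it. The log2 fold change of HOXC6 was 0.43 ± 0.14 (SE; edgeR quasi-likelihood, adjusted p = 0.0269), and the call was lost without control replicate 2 (0.33) or 3 (0.40) and without resistant replicate 2 (0.42) or 3 (0.40). HOXC8, a thoracic-level gene, measured 2.25, 1.62 and 2.05 FPKM in the controls and 2.83, 2.45 and 2.85 FPKM in the resistant libraries. The groups did not overlap, the log2 fold change was 0.43 ± 0.14 (SE; edgeR quasi-likelihood, adjusted p = 0.0271), and the call was lost without control replicate 2 (0.31), resistant replicate 1 (0.41) or resistant replicate 3 (0.40). The models of HOXC4, HOXC5 and HOXC6 share their first base and part of their exons, and HOXC4 and HOXC5 had the same fragment count, 71 and 93, in control replicates 1 and 2. Their values are therefore uncertain as separate genes. HOXC4 itself, at 0.922 ± 0.121 FPKM and 1.22 ± 0.135 FPKM (SD, n = 3 each), did not pass (0.39 ± 0.15 on the log2 scale, edgeR quasi-likelihood, adjusted p = 0.051), and it passed without resistant replicate 1 (0.48).

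The other 5 tested genes that did not pass include the most abundant member of the HOXA and of the HOXC cluster. HOXA9, a factor best known from leukaemia, measured 22.3, 18.2 and 16.85 FPKM in the controls and 21.8, 20.15 and 19.6 FPKM in the resistant libraries. Control replicate 1 was the highest of all, and the groups overlapped (log2 fold change 0.08 ± 0.10, SE; edgeR quasi-likelihood, adjusted p = 0.552). Without that library, the log2 fold change was 0.21 and passed the test. The fragments of HOXA9 were counted almost in full for the readthrough transcript HOXA10-HOXA9 as well, which had 1804 against 1761 fragments in control replicate 1, so the HOXA9 level cannot be told apart from the readthrough. The ratio of HOXA13 to HOXA9 FPKM was 0.826 ± 0.0234 in the controls and 0.533 ± 0.0396 in the resistant cells (SD, n = 3 each).

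HOXC13, a hair and nail gene, was the most abundant HOXC gene at 5.79, 6.76 and 5.86 FPKM in the controls and 6.63, 7.25 and 6.97 FPKM in the resistant libraries. The groups overlapped, and the log2 fold change was 0.16 ± 0.08 (SE; edgeR quasi-likelihood, adjusted p = 0.133). It was the 1 tested gene of groups 10 to 13 that did not pass. The HOXC13 model overlaps the antisense RNA HOXC13-AS, which had 152 to 212 fragments per library and a log2 fold change of 0.19 that did not pass. As the counting strand is not known, the values of HOXC13 and HOXC13-AS cannot be fully told apart. HOXA6 measured 1.59, 1.80 and 3.19 FPKM in the controls and 3.55, 3.15 and 3.18 FPKM in the resistant libraries, so that 1 control lay among the resistant values. Its log2 fold change of 0.58 ± 0.24 did not pass (edgeR quasi-likelihood, adjusted p = 0.0715) and was 0.94, past the test, without control replicate 3. HOXB6 (0.23 ± 0.09) and HOXA3 (0.18 ± 0.11) did not pass either.

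Ordered by paralogue group, the tested genes formed 2 ranges of log2 fold change, which overlapped through HOXC13 (0.16). Of the 12 tested genes of groups 1 to 9, 7 rose, 0 fell and 5 missed the threshold. Over all tested genes, 24.5% were called higher and 25.7% lower. Log2 fold changes of the 12 ran from 0.08 to 0.82, with a median of 0.43. HOXA7, HOXB3, HOXC4 and HOXC5, all among the 12, entered the test only through their level in the resistant cells. The counts, range and median of the 12 therefore rest partly on genes selected for being higher there. Of the 5 tested genes of groups 10 to 13, 0 rose, 4 fell and 1 missed the threshold. These ran from −0.95 to 0.16, with a median log2 fold change of −0.33. This boundary was chosen after the values were seen, and no test was made on it. Untested genes, in the fit without a filter described below, had log2 fold changes of both signs in each range. HOXB2 (1.53) and HOXB7 (−0.43) are of groups 1 to 9, and HOXD13 (0.43) and HOXC10 (−0.05) of groups 10 to 13. Of these, only HOXB2 passed. By cluster, HOXA3, HOXA5, HOXA6, HOXA7 and HOXA9 had positive log2 fold changes, and HOXA10, HOXA11 and HOXA13 negative ones. In the HOXB cluster, HOXB3, HOXB6 and HOXB9 were positive and HOXB13 negative. In the HOXC cluster all 5 tested genes were positive, HOXC13 included, so this order was not seen there. The clusters hold the same genes from which the boundary was drawn, and give no second observation of it. In group 13, HOXA13 and HOXB13 fell, while HOXC13 had a positive log2 fold change (0.16 ± 0.08, SE) that did not pass.

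**Figure D3:**
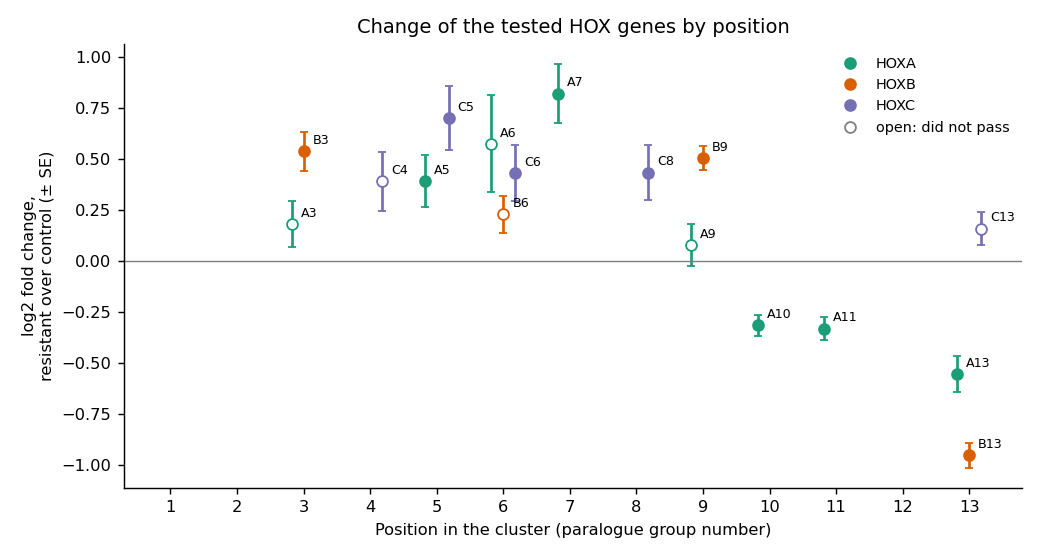
Log2 fold change (resistant over control, y axis; bars are ± SE from the edgeR fit) of the 17 tested HOX genes by paralogue group number (x axis), coloured by cluster, filled where the adjusted p passed. The values lie above 0 up to group 9, from 0.08 to 0.82, and below 0 for HOXA10, HOXA11, HOXA13 and HOXB13. HOXC13, of group 13, is open and above 0 at 0.16.

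The other 22 HOX genes were under 1 FPKM on average and were not tested in that fit. They include HOXA2 and HOXA4, HOXB1, HOXB2, HOXB4, HOXB5, HOXB7 and HOXB8, HOXC9, HOXC10, HOXC11 and HOXC12, and all 9 HOXD genes. The values nearest the limit were HOXA4 at 0.878 FPKM, just outside, and HOXC4 at 1.07 FPKM, just inside. HOXB1 and HOXD11 had 0 fragments in all 6 libraries, which allows up to 3 fragments per library, counting error only. HOXB8, HOXC12, HOXD1, HOXD3, HOXD4, HOXD9, HOXD10 and HOXD12 had at most 9 fragments in any library. HOXD8, the most abundant HOXD gene, had 35, 35 and 37 fragments (0.347, 0.343 and 0.40 FPKM) in the controls and 40, 49 and 58 fragments (0.452, 0.445 and 0.574 FPKM) in the resistant libraries. The HOXD8 groups did not overlap, as was also the case for HOXB2, HOXC9 and HOXD13, each higher in the resistant libraries, and for 0 untested HOX genes in the other direction. That is 4 of the 20 untested HOX genes with any fragment, close to the 18.9% of all such untested genes that were separated in this direction; 7.17% were separated in the other.

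A fit without the filter on low values covered 37 HOX genes and called 9 higher and 4 lower, where 17.3% of all genes in that fit were called higher and 19% lower (36.3% in either direction). The genes it added were HOXB2 and HOXC9. HOXB2, an anterior gene of hindbrain patterning, had 14, 17 and 15 fragments in the controls and 53, 38 and 48 in the resistant libraries. The groups were well separated at low counts, with a log2 fold change of 1.53 ± 0.28 (SE; edgeR quasi-likelihood, adjusted p = 0.000425). HOXC9 had 24, 10 and 14 fragments in the controls and 29, 32 and 35 in the resistant libraries, with a log2 fold change of 0.93 ± 0.32 (SE; edgeR quasi-likelihood, adjusted p = 0.0306). Not every low gene was higher, since HOXA2 (−0.19 ± 0.21), HOXB5 (−0.17 ± 0.30) and HOXB7 (−0.43 ± 0.29) had negative log2 fold changes that did not pass.

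Inside the HOXB cluster, in the interval between HOXB9 and HOXB13, the prostate-enriched genes PRAC1 and PRAC2 fell along with HOXB13. PRAC1, a small nuclear protein gene known for its expression in prostate and distal colon, measured 114.0, 116.9 and 115.9 FPKM in the controls and 57.9, 68.0 and 62.5 FPKM in the resistant libraries. The resistant values were all lower by a wide margin, and the log2 fold change was −0.90 ± 0.07 (SE; edgeR quasi-likelihood, adjusted p = 1.77e-05). PRAC2 was at 25.9 ± 1.65 FPKM in the controls and 19.9 ± 0.348 FPKM in the resistant cells (SD, n = 3 each). It fell by 0.40 ± 0.07 on the log2 scale (SE; edgeR quasi-likelihood, adjusted p = 0.00234). Both genes lie within a few kilobases of HOXB13, PRAC1 at chr17:46799082-46799882 and PRAC2 at chr17:46800530-46802120 (hg19).

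Of the 17 noncoding RNAs of the clusters found in the files, 8 were tested, 0 rose, 1 fell and 7 did not pass, beside 24.5% of all tested genes called higher and 25.7% lower. HOXA10-AS, the antisense transcript at HOXA10, was at 36.6 ± 1.09 FPKM in the controls and 29.8 ± 0.328 FPKM in the resistant cells (SD, n = 3 each), and fell by 0.31 ± 0.05 on the log2 scale (SE; edgeR quasi-likelihood, adjusted p = 0.00122). Its model overlaps HOXA10 on the opposite strand and the sources used here do not say if counting used strand, so the fall of HOXA10-AS and that of HOXA10 cannot be told apart. The fit without a filter covered 16 of these RNAs and called 3 higher, beside 17.3% of all genes in that fit. HOTAIR, a HOXC-cluster RNA known to act with Polycomb, had 67, 78 and 47 fragments in the controls and 108, 140 and 134 in the resistant libraries. Its groups did not overlap (log2 fold change 0.92 ± 0.16, SE; edgeR quasi-likelihood without the filter, adjusted p = 0.000265). HOXA-AS3 (0.72 ± 0.13) and the HOXD-cluster RNA HAGLR (1.25 ± 0.33) were the others. HOTAIR overlaps HOXC11, HOXA-AS3 overlaps HOXA5, HOXA6 and HOXA7, and HAGLR overlaps HOXD1, each on the opposite strand, so the same limit holds for them.

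Of the 6 microRNA genes of the clusters, 5 had 0 fragments. MIR196B, between HOXA9 and HOXA10, had 34, 44 and 40 fragments in the controls and 25, 25 and 33 in the resistant libraries. The groups did not overlap, and the log2 fold change of −0.54 ± 0.22 did not pass (edgeR quasi-likelihood, adjusted p = 0.0625). The MIR196B row lies within the readthrough model HOXA10-HOXA9, and its fragments and those of the longer transcript cannot be told apart.

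Around the clusters, the 5 nearest tested genes on each side were taken, 40 in all, of which 15 rose, 8 fell and 17 did not pass. The shares over all tested genes were 24.5% called higher and 25.7% called lower. Around HOXC, 8 of 10 rose and 0 fell, with a median log2 fold change of 0.44, where 24.5% of all tested genes were called higher. On the HOXC13 side the nearest was CALCOCO1, a coactivator and autophagy receptor gene, at 3.35, 3.48 and 3.15 FPKM in the controls and 7.88, 7.95 and 7.93 FPKM in the resistant libraries. CALCOCO1 was thus 2.35-fold higher, a log2 fold change of 1.23 ± 0.07 (SE; edgeR quasi-likelihood, adjusted p = 3.33e-06). SMUG1, a uracil DNA glycosylase gene on the HOXC4 side, rose by 0.33 ± 0.06 on the log2 scale (SE; edgeR quasi-likelihood, adjusted p = 0.00143). MIR3198-2 (1.08 ± 0.24) lies within the model of CBX5, and the counts of the microRNA gene and its host cannot be told apart. LOC100652999, which also rose, lies within the model of ATF7 on the opposite strand, with the same limit on strand. It lost its call without resistant replicate 2 or 3. HNRNPA1P10, which did not pass, lies within the model of HNRNPA1. The 10 genes around HOXC are therefore not all separate observations.

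Around HOXA, 1 of 10 genes rose and 1 fell, where 24.5% of all tested genes were called higher and 25.7% lower. The genes nearest HOXA, SKAP2 (0.06 ± 0.08) and HIBADH (−0.02 ± 0.05), did not pass. Around HOXB, 3 of 10 rose and 4 fell, beside the same shares of all tested genes. SKAP1, an adaptor gene on the HOXB1 side, rose by 0.66 ± 0.18 on the log2 scale (SE; edgeR quasi-likelihood, adjusted p = 0.0136) at 0.771 against 1.24 FPKM. CALCOCO2, an autophagy receptor gene on the HOXB13 side, fell by 0.19 ± 0.05 on the log2 scale (SE; edgeR quasi-likelihood, adjusted p = 0.0125), a call lost without resistant replicate 1. Around HOXD, 3 of 10 rose and 3 fell, again beside those shares. LNPK fell by 0.40 ± 0.13 on the log2 scale (SE; edgeR quasi-likelihood, adjusted p = 0.0303), a call lost whichever resistant library was left out, and MTX2 (0.15 ± 0.06) did not pass. CHRNA1, a muscle acetylcholine receptor subunit gene 1328.3 kb from the HOXD cluster, rose by 3.05 ± 0.17 on the log2 scale (SE; edgeR quasi-likelihood, adjusted p = 3.56e-06). Its level was 0.289 ± 0.0777 FPKM in the controls and 2.44 ± 0.136 FPKM (SD, n = 3 each) in the resistant libraries.

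**Figure D4:**
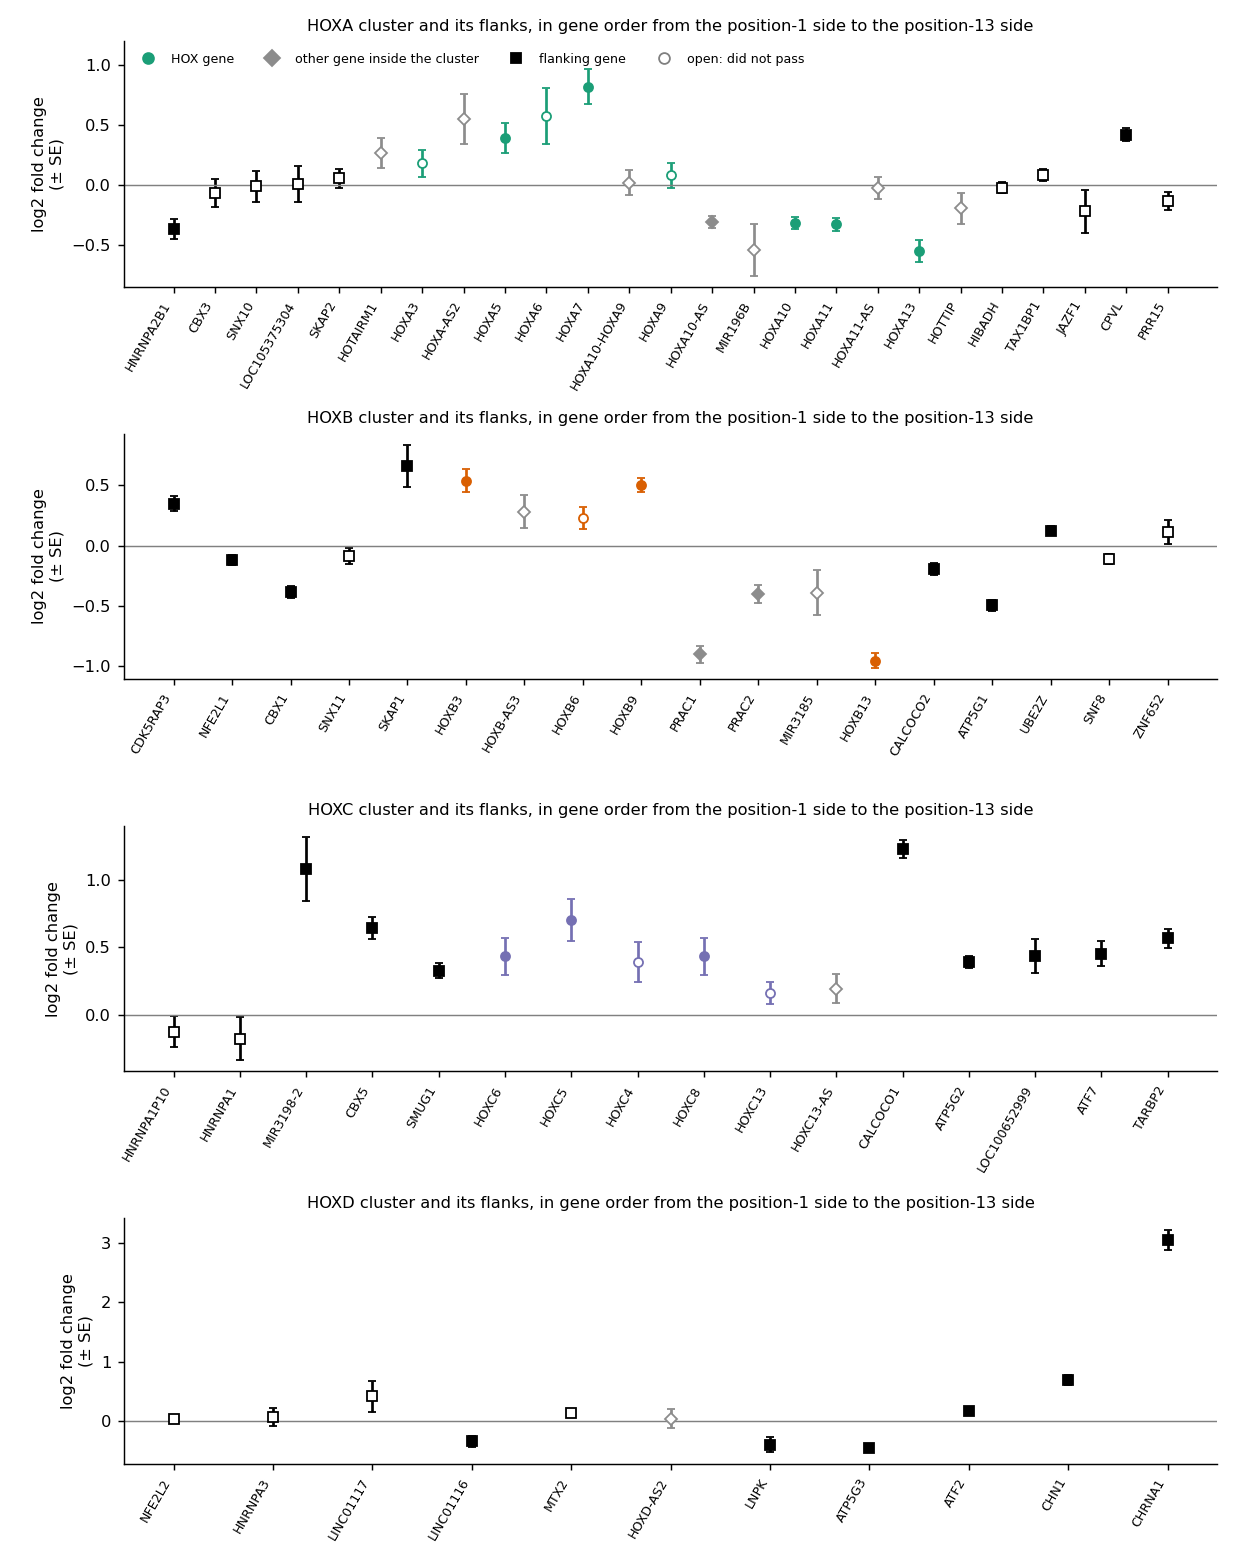
Log2 fold change (resistant over control; bars are ± SE from the edgeR fit) of the tested genes in and around each HOX cluster, in gene order and not to genomic scale. Coloured circles are HOX genes, grey diamonds other genes inside the cluster, black squares the 5 nearest tested genes on each side, and open symbols did not pass; PRAC1 (−0.90) and HOXB13 (−0.95) lie together at the low end of the HOXB panel, and 8 of 10 squares of the HOXC panel are filled and above 0.

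Regulators and partners of HOX genes moved in both directions. Over 8 lists of related genes, the noncoding and microRNA genes of the clusters included, 9 of 62 tested members rose and 16 fell, beside 24.5% and 25.7% of all tested genes. Of 9 TALE cofactors, 7 were tested: 1 rose, 2 fell and 4 missed the threshold, with a median log2 fold change of −0.07. MEIS2, a DNA-binding partner of posterior HOX proteins, was at 3.01 ± 0.25 FPKM in the controls and 2.32 ± 0.215 FPKM in the resistant cells (SD, n = 3 each), and fell by 0.39 ± 0.10 on the log2 scale (SE; edgeR quasi-likelihood, adjusted p = 0.0107). PBX4 (0.45 ± 0.16) rose and PKNOX1 (−0.16 ± 0.06) fell, and both lost their call without control replicate 2 or 3 and without each of the resistant replicates.

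Of 13 COMPASS and trithorax regulators, which keep HOX genes active, 12 were tested, and 4 rose, 3 fell and 5 missed the threshold. Their median log2 fold change was −0.00046, where 24.5% of all tested genes were called higher and 25.7% lower. KMT2A, the methyltransferase MLL that maintains HOX expression, was at 6.29, 5.64 and 6.24 FPKM in the controls and 8.23, 8.94 and 9.46 FPKM in the resistant libraries. It rose by 0.53 ± 0.07 on the log2 scale (SE; edgeR quasi-likelihood, adjusted p = 0.000295), without overlap of the groups, and its relative KMT2B rose by 0.36 ± 0.06. In the other direction, PSIP1, which tethers MLL to chromatin, fell by 0.54 ± 0.12 on the log2 scale (0.37 without control replicate 1), and WDR5, a core COMPASS subunit, fell by 0.48 ± 0.05.

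Of the 11 PRC2 subunits, all tested (median log2 fold change −0.04), 2 rose, 3 fell and 6 missed the threshold. The shares over all tested genes were 24.5% higher and 25.7% lower. The catalytic subunit EZH1 was at 1.82, 2.05 and 1.91 FPKM in the controls and 3.18, 3.30 and 3.46 FPKM in the resistant libraries, and rose by 0.76 ± 0.08 on the log2 scale (SE; edgeR quasi-likelihood, adjusted p = 8.59e-05). The core subunit SUZ12 was at 17.2, 13.2 and 12.9 FPKM in the controls and 8.81, 8.78 and 8.72 FPKM in the resistant libraries. Control replicate 1 was the highest, and SUZ12 fell by 0.74 ± 0.11 on the log2 scale (SE; edgeR quasi-likelihood, adjusted p = 0.000682), or by 0.59 without that library. JARID2 rose by 0.29 ± 0.05, and EED fell by 0.28 ± 0.08, a call lost without resistant replicate 1 or 2 and with a GC correction (−0.09; adjusted p = 0.383, edgeR quasi-likelihood). The other catalytic subunit, EZH2, did not pass (0.07 ± 0.05).

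Of the 19 PRC1 subunits, all tested, 1 rose, 5 fell and 13 missed the threshold. Their median log2 fold change was −0.08, where 24.5% of all tested genes were called higher and 25.7% lower. Without control replicate 1, which stood apart from the other controls by GC content, 4 PRC1 subunits rose and 8 fell. Calls were then more frequent over all tested genes too, at 31.9% higher and 32.9% lower. BMI1, the Polycomb ring finger protein also called PCGF4, was at 71.2, 50.9 and 48.4 FPKM in the controls and 28.8, 27.97 and 28.4 FPKM in the resistant libraries. All resistant values were lower, and BMI1 fell by 1.02 ± 0.13 on the log2 scale (SE; edgeR quasi-likelihood, adjusted p = 0.00036), or by 0.82 without control replicate 1. Its model overlaps the readthrough transcript COMMD3-BMI1, and BMI1 and the readthrough cannot be told apart. The chromodomain subunit CBX7 rose by 0.77 ± 0.11 on the log2 scale (SE; edgeR quasi-likelihood, adjusted p = 0.000477), while PCGF6 fell by 0.67 ± 0.15 and CBX8 fell by 0.58 ± 0.08.

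Of 9 genes of retinoic acid signalling, 4 were tested (median log2 fold change −0.19), of which 1 rose, 2 fell and 1 missed the threshold. Among all tested genes, 24.5% were called higher and 25.7% lower. The retinoid X receptor RXRB rose by 0.40 ± 0.06 and the retinoic acid receptor RARG fell by 0.37 ± 0.08 on the log2 scale (SE; edgeR quasi-likelihood, adjusted p = 0.00083 and 0.0039). RXRA (−0.24 ± 0.07) lost its call without control replicate 3 and without each of the resistant replicates. None of the 8 ParaHox and EVX genes, the nearest relatives of the HOX clusters, reached the filter, and the most abundant was EVX1 at 0.027 FPKM.

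**Figure D5:**
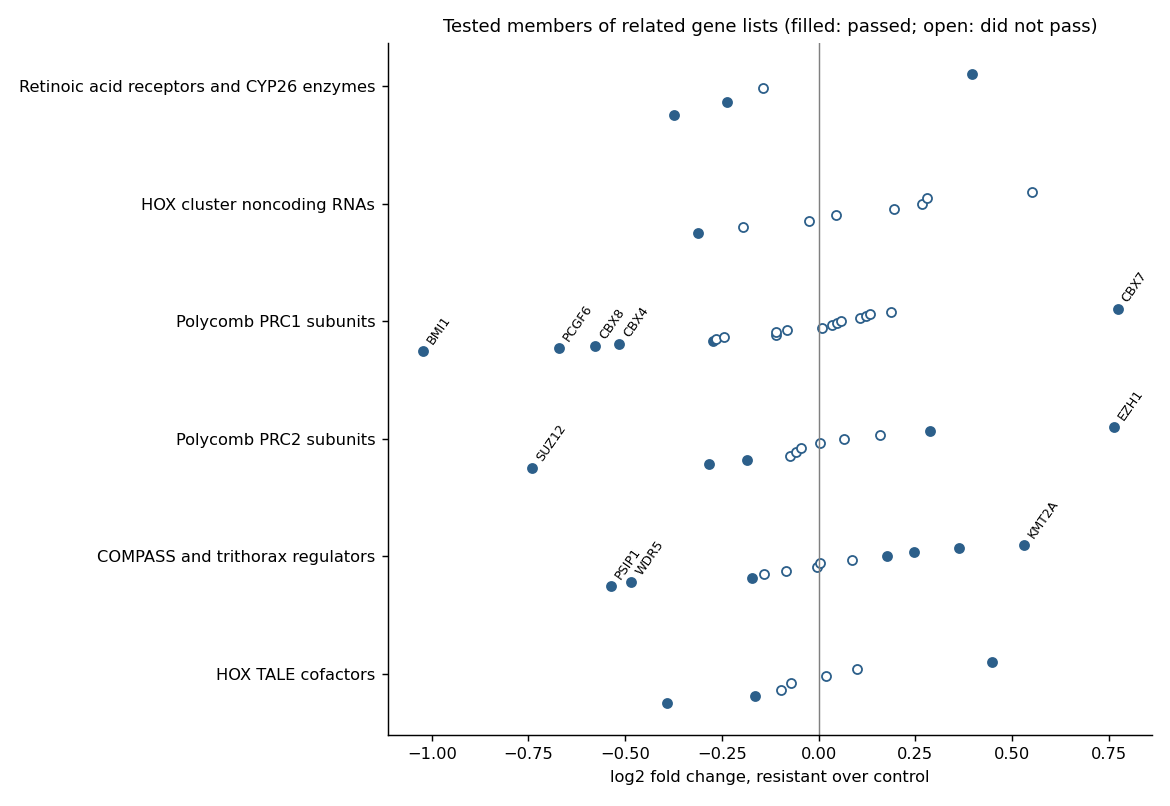
Log2 fold change (resistant over control, x axis) of the tested members of 6 related gene lists, filled where the adjusted p passed and named where a passing value was at least 0.45 in size. Each list has members on both sides of 0, among them KMT2A (0.53) against PSIP1 (−0.54), EZH1 (0.76) against SUZ12 (−0.74) and CBX7 (0.77) against BMI1 (−1.02).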

How the data were processed

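RNA of 3 PC-3-control and 3 PC-3-GDC-R libraries was measured. The deposited files give fragment counts and FPKM per gene, with positions on hg19; TopHat2 2.0.6 and hg19 are named in the submitters' processing notes, and the sources used here name neither the counting program nor its strand setting. The gene counts, as deposited by the authors, sum to 5.56 to 5.84% more than the authors' stated totals, so some fragments are counted for more than 1 gene. The authors' deposited score per gene, the count divided by a library total, gave those totals. FPKM values are the authors' and were used for levels and for the filter. Counts were tested for the 13070 genes whose symbol occurs once and whose mean FPKM is at least 1, in R 4.3.3 with edgeR 4.0.16 (TMM, quasi-likelihood, group only), Benjamini-Hochberg over all of them, threshold 0.05; 849 rows with a repeated symbol were left out. Alternatives used DESeq2 1.42.0, limma 3.58.1, other scalings and filters, a GC correction (12503 genes, 95.7%, had a GC value), a replicate block and each library left out. The code was tested on simulated data. Replicate numbers did not pair the samples (correlations of deviations −0.0204, 0.0416 and −0.0896). Members and lists were chosen with earlier results of these data known. Values per library are given for the HOX genes that passed and the most abundant gene of each cluster, and up to 4 passing genes are named per list, by size of change; PRAC1, PRAC2, HOTAIR, HOXA-AS3, HAGLR and EZH2 were named after their values were seen. A limit of 3 fragments stands for a count of 0, and covers counting error only. Promoter sequences are RefSeq's on another build, and no coordinate was converted. Some genes are not reported here.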

Additional observations from a re-analysis of the deposited data

How the results depend on the processing

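The 4 HOX genes that fell did so under all 17 alternatives in which they were fitted, and the sign of the 17 tested genes was kept in 279 of 279 values. Of the 11 genes called, 8 (HOXA7, HOXA10, HOXA11, HOXA13, HOXB3, HOXB9, HOXB13 and HOXC5) kept their call in each alternative in which they were fitted. HOXA7, HOXB3 and HOXC5 were too low to be fitted with a mean of at least 5 FPKM. HOXA5, HOXC6 and HOXC8 lost their call with some libraries left out. The number of HOX genes higher, 7, was 1 with a mean of at least 5 FPKM, a filter that removes most of them, and 4 to 8 with a library left out (4 without control replicate 2). Related-list calls, 25, were 38 with a GC correction and without control replicate 1, a setting chosen after seeing the data, and 17 to 37 with a library left out. Flanking-gene calls, 23, were 17 to 32 with a library left out. Calls over all 13070 tested genes moved as well. They were 3200 higher and 3360 lower as reported, and 2544 to 4165 higher and 2368 to 4298 lower with a library left out. With the replicate number as a block, although the numbers do not pair the samples, 7 HOX genes were higher and 4 lower, and the calls numbered 24 among list members and 20 among flanking genes. HOXA6 passed with the GC correction (0.54), HOXB6 with library totals only (0.25) or limma on log2(FPKM + 1) (0.19), and HOXC4 with library totals only (0.41). PRC1 subunits, 1 higher and 5 lower, were 4 and 9 with the GC correction, where all tested genes gave 3821 higher and 4415 lower. TALE cofactors, 1 higher and 2 lower, were 0 and 1 with DESeq2. No share over all genes is given for DESeq2, the replicate block or the GC correction without control replicate 1. The cause of these moves was not tested, except that a stricter filter tests fewer genes. Low counts limit what can be said of HOXD.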
